A study of Rattus norvegicus with 4 samples.

Results

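The Slc25 family of carrier genes was followed through single-nucleus RNA sequencing of rat heart. Members were the rows of the deposited gene table whose symbol is Slc25a followed by a number, which gave 48 of 32623 genes. Together they held 216391 of 108629374 UMIs, or 0.199%. A UMI (unique molecular identifier) is a tag that lets each captured RNA molecule be counted once. No member was at 0 over all barcodes, but 10 had fewer than 100 UMIs and 7 of these fewer than 30.

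Nuclei came from the infarct zone of Sprague Dawley rats, in 4 samples with 1 library each. The samples were labelled Sham, MI_1H, MI_6H and MI_24H, with the treatments given as Sham and as MI with reperfusion at 1, 6 and 24 h. The design text describes ligation of the left anterior descending coronary artery for these times and, separately, reperfused arms, so it remains unclear from which event the hours run. Neither the animals' age nor their number nor any pooling is stated in the labels. The 4 libraries were merged in the deposited matrix under barcode suffixes 1 to 4, and no source used here ties a suffix to a sample. The libraries are therefore called 1 to 4, none is called sham or infarct, and no difference between them is read as an effect of infarction. With 1 library per sample there is no replicate and no test between samples. Intervals below are 95% and cover counting error only.

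Mitochondrial carriers of this family sit mainly in the inner membrane, where they move nucleotides, phosphate, organic acids, amino acids, cofactors and iron between the matrix and the cytosol. Cardiac muscle depends on them for the exchange of ADP for ATP, for the entry of fatty acyl groups as carnitine esters, and for the malate-aspartate shuttle, which brings the reducing power of cytosolic NADH into the matrix. The genes lie in the nuclear genome, so their transcripts can be counted in nuclei. UMI counts were not corrected for transcript length, so each gene is compared with itself across classes and libraries, and no gene is ranked against another by level.

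Libraries 1 to 4 held 18465378, 14296637, 51913291 and 23954068 UMIs. After filters 41728 nuclei fell into 68 clusters, of which 51 were named from heart markers, giving 27900 nuclei in 10 classes whose names end in "-like". Library 2 stands apart: 83.1% of its nuclei stayed unnamed, against 1.03, 9.58 and 26.7% in libraries 1, 3 and 4, and only cardiomyocyte-, fibroblast- and endothelial-like nuclei were named in it. Cardiomyocyte-like nuclei numbered 2626, 408, 1207 and 768 in libraries 1 to 4. Their 10 detected markers summed to 39197, 26827, 12592 and 16397 counts per 1000000 UMIs (CPM) there, against 2996, 3189, 1734 and 2009.9 in the other named nuclei, and none was at 0 in those. Of the cardiomyocyte markers, Ttn and Ctnna3 were not found among the symbols. Pairs of libraries shared 22 to 78 barcodes. Median mitochondrially encoded shares were 0.0745, 0.492, 1.24 and 1.09% of UMIs in libraries 1 to 4.

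For each class and library, a gene's UMIs were added up and divided by all UMIs of those nuclei, giving its level in CPM. A class was set against all other named nuclei of the same library. A gene counted as measured where at least 10 UMIs would be expected on both sides in every library if the levels were equal, and as higher or lower where the ratio was at least 2-fold in the same direction in every library. Cardiomyocyte-like nuclei were higher for 5 of 30 measured members, or 16.7%, where 4.93% of the 9779 measured genes were higher. They were lower for 0 of the 30, where 2.19% of genes were. The other 18 members had too few UMIs for this count. Of the 5 higher members, Slc25a23 and Slc25a34 met the minimum through the cardiomyocyte-like nuclei, which held most of their UMIs. The shares of all genes were counted with the same filter. The median log2 ratio over the measured members, with 10 CPM added to both sides, was 0.16, 0.03, 0.03 and 0.08 in libraries 1 to 4. Over all measured genes it was -0.56, -0.39, -0.23 and -0.31, so an unchanged ratio lies above the middle of all genes in this comparison. With ratios centred on that middle, 6 members were higher, Slc25a20 being added, and the shares of all genes were 7.46% higher and 0.256% lower. A ratio above 1 in every library was seen for 12 members, and for 14.9% of all genes, while a ratio below 1 in every library was seen for 8 members and 64.2% of all genes.

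The 5 higher members were Slc25a12, Slc25a13, Slc25a23, Slc25a34 and Slc25a42. Their promoters, 250 bases before to 50 bases after the RefSeq start on build GRCr8, are shown because these are the members that went together in cardiomyocyte-like nuclei. They were searched on both strands for the estrogen-related receptor element TCAAGGTCA and its core AAGGTCA, which is contained in it, since the study's title names these receptors. Capitals mark the only match, TGACCTT in Slc25a34, the core read on the opposite strand, starting 152 bases before the gene start. The windows, in the order below, are chr3:76599487-76599786, chr4:35328311-35328610, chr9:1985316-1985615 and chr5:159219843-159220142 on the minus strand and chr16:19247724-19248023 on the plus strand.
Slc25a12: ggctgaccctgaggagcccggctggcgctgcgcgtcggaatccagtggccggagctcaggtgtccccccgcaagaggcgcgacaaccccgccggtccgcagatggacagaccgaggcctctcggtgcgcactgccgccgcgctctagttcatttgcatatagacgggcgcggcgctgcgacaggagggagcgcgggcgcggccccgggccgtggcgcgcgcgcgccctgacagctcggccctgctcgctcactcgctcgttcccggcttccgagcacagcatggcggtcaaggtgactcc
Slc25a13: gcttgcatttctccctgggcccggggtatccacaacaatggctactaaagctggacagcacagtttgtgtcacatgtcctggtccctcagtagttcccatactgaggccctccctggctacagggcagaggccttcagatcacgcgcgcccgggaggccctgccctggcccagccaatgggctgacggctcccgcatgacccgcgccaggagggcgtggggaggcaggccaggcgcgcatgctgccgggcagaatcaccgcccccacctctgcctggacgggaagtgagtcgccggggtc
Slc25a23: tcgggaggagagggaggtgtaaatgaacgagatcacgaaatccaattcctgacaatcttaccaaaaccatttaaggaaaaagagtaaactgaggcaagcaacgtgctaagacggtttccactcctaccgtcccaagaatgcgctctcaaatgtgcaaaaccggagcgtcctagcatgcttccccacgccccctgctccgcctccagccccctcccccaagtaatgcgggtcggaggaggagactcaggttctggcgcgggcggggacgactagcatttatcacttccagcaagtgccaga
Slc25a34: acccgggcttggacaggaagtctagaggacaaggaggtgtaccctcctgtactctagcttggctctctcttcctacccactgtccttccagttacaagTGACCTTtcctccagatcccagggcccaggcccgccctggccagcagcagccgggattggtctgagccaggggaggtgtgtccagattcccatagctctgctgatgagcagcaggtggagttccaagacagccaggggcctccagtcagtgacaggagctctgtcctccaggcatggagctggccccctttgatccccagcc
Slc25a42: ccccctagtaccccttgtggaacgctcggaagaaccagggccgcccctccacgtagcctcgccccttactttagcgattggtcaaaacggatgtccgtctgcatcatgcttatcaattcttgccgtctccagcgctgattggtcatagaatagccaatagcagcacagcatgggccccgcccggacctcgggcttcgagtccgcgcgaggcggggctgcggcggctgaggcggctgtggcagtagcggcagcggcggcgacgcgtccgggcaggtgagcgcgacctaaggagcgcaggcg
Among the 40 members with a promoter in the table, 1 held the core, or 2.5%, against 4.83% of 27457 genes. The longer element was in 0 of the 40 and in 0.441% of genes. A match describes letters only, and its absence says nothing about binding. The 5 promoters had a median GC content of 65.0%, ranging from 54.3 to 72.3%, beside 59.3% for these 40 members and 52.3% for all genes. The number of CG pairs ran from 3 in Slc25a34 to 41 in Slc25a12, with medians of 17.0 in the 40 members and 7 over all genes.

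The aspartate-glutamate carriers, which export aspartate from the matrix and are steps of the malate-aspartate shuttle, are encoded by Slc25a12 (aralar) and Slc25a13 (citrin). Slc25a13 stood at 298, 184, 138 and 148 CPM in cardiomyocyte-like nuclei of libraries 1 to 4, against 39.7, 52.5, 47.9 and 35.7 in other named nuclei. The ratios were 7.49 (6.62 to 8.49), 3.50 (2.79 to 4.41), 2.88 (2.65 to 3.13) and 4.15 (3.69 to 4.68). Every cardiomyocyte-like value lay above every value of the other nuclei, and library 1 had the highest. Slc25a12 stood at 203, 168, 174 and 197 CPM against 98.2, 74.3, 77.5 and 75.1. Its ratios of 2.07, 2.26, 2.25 and 2.63 were the nearest to the 2-fold bound among the higher members, and the lower ends of the intervals in libraries 1 and 2, 1.89 and 1.82, were under it. Keeping doublet-scored nuclei brought the lowest Slc25a12 ratio to 1.82, and the gene was then no longer counted as higher. It was also lost with nuclei of at least 1000 UMIs (lowest ratio 1.99) and with classes set by marker share (1.48).

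Both genes were also present outside muscle. Slc25a12 was within 54.2 to 115 CPM in every library of the pericyte-, neutrophil- and macrophage-like nuclei. Slc25a13 reached 126 CPM in the 473 dendritic-like nuclei of library 3 next to 138 CPM in cardiomyocyte-like nuclei of that library, and the intervals of these values overlapped. In macrophage-like nuclei it was 122, 71.0 and 59.3 CPM in libraries 1, 3 and 4. Fibroblast-like nuclei held 25.1, 54.6, 31.3 and 38.1 CPM of it. With libraries pooled, the other classes ran from 65.7 to 109 CPM for Slc25a12, and for Slc25a13 from 25.9 CPM in pericyte-like nuclei to the dendritic-like value. Slc25a11, the oxoglutarate-malate carrier of the same shuttle, had too few UMIs to be measured by the rule. It was 23.8, 10.7, 22.8 and 21.1 CPM in cardiomyocyte-like nuclei, with a ratio of 2.28 in library 1 and of 1.10, 1.06 and 1.00 in the others. None of the 4 measured shuttle enzymes (Got1, Got2, Mdh1 and Mdh2) was higher or lower by the same rule. Mdh1 missed it through library 3 alone, with ratios of 4.94, 2.76, 1.74 and 2.26. Got1 had 4.46, 1.65, 1.65 and 1.66, and Got2 had 3.25, 1.41, 1.16 and 1.29. Mdh2 lay on both sides of 1, with 1.56, 0.901, 0.914 and 0.880.

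**Figure D1:**
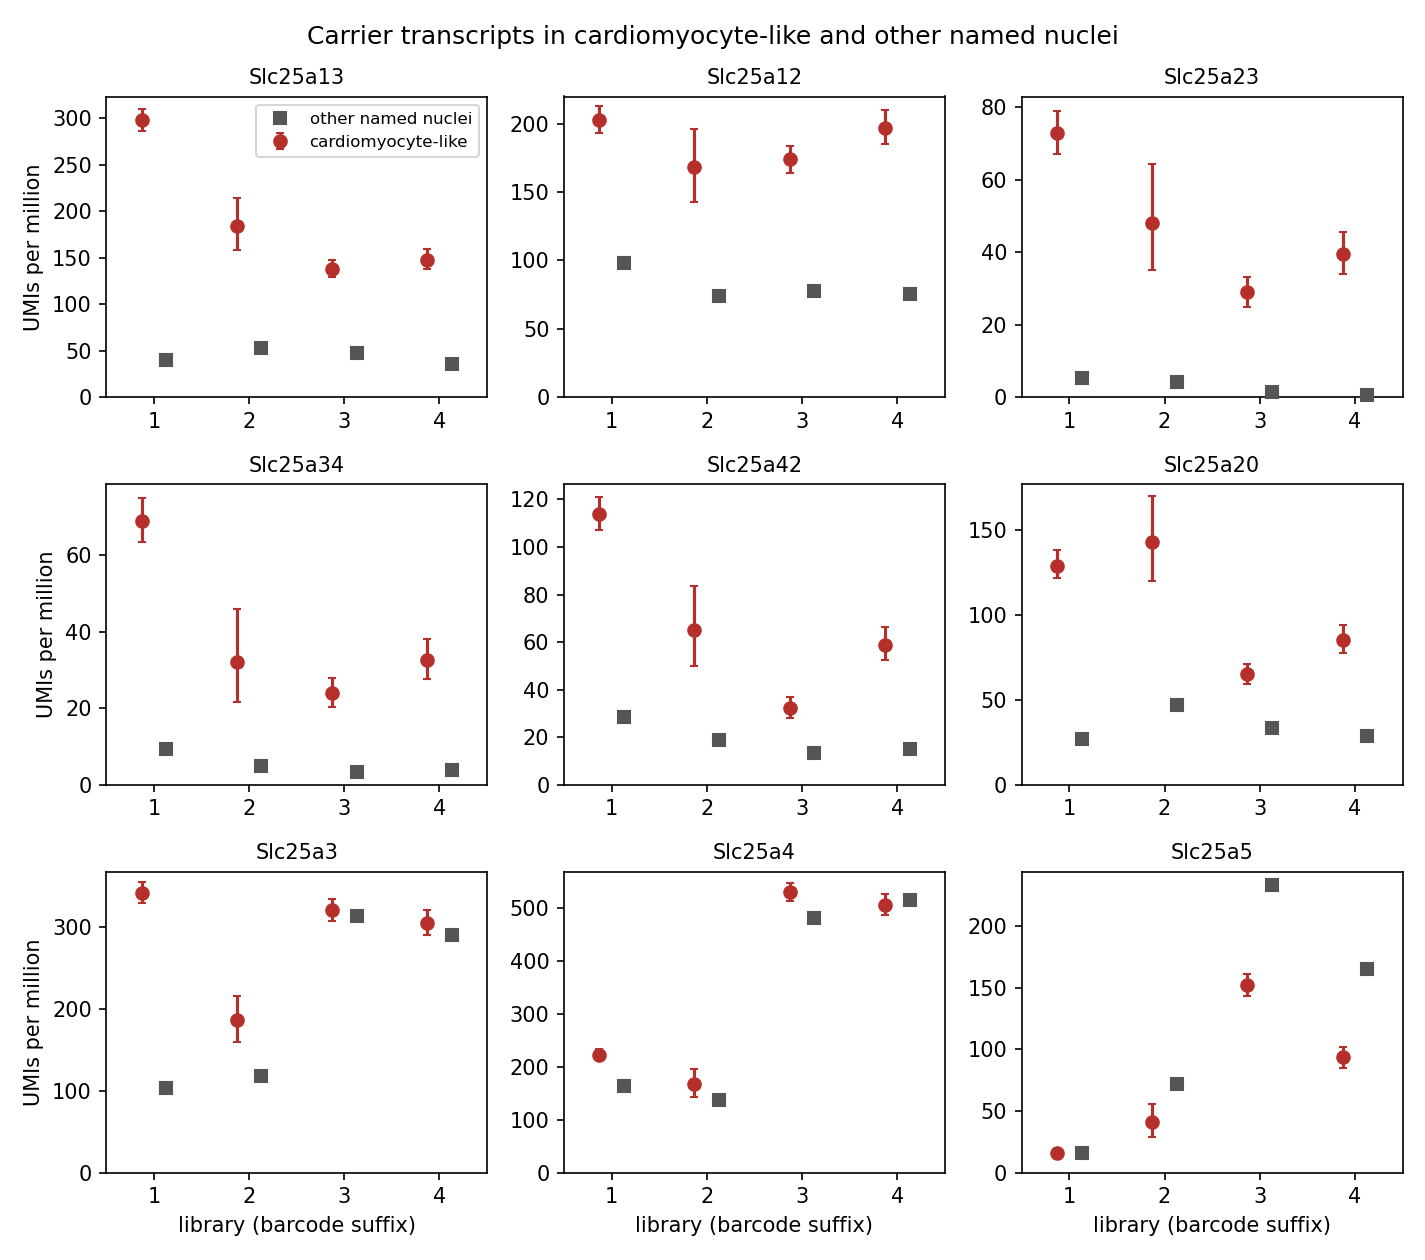
CPM of 9 carrier genes (vertical axes from 0) in libraries 1 to 4 (horizontal axes), in cardiomyocyte-like nuclei (red circles, bars are 95% Poisson intervals) and in all other named nuclei (grey squares). The first 6 genes lie higher in cardiomyocyte-like nuclei in each library, Slc25a3 and Slc25a4 lie close to the other nuclei in libraries 3 and 4, and Slc25a5 is lowest in library 1 on both sides.

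The calcium-regulated ATP-Mg/phosphate carriers adjust the matrix pool of adenine nucleotides, and their genes pointed in different directions. Slc25a23 was 72.9, 48.2, 28.9 and 39.5 CPM in cardiomyocyte-like nuclei and 5.36, 4.13, 1.48 and 0.714 CPM in other named nuclei. The ratios were 13.6 (9.83 to 19.3), 11.7 (5.94 to 25.0), 19.5 (14.0 to 27.7) and 55.4 (28.6 to 123). No other class held more than 11 CPM of it in any library, so its groups did not overlap. In each library most of its UMIs were in cardiomyocyte-like nuclei, so it met the count requirement through the group where it was high. Slc25a24 showed the opposite order, at 2.23, 35.3, 45.5 and 47.5 CPM in cardiomyocyte-like nuclei against 48.3, 73.5, 71.5 and 68.5 elsewhere. Its ratio was 0.0463 (0.0271 to 0.0742) in library 1 and 0.480, 0.636 and 0.693 in the others. It was below 1 in all 4, as were 64.2% of all measured genes, but not past the bound in libraries 3 and 4. Slc25a25 had ratios of 0.994, 0.730, 0.948 and 1.23, on both sides of 1. With classes set by marker share, Slc25a23 and Slc25a34 dropped out of the count although their lowest ratios were 2.85 and 2.44. Slc25a41, which lacks the calcium-binding part, had 8 UMIs in all and no level is given for it.

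The ADP/ATP carriers exchange ADP for ATP across the inner membrane, with Slc25a4 the form best known from heart and muscle. Slc25a4 was 222, 167, 530.2 and 506 CPM in cardiomyocyte-like nuclei and 163, 137, 481 and 515 CPM in other named nuclei. The ratio was 1.36, 1.22, 1.10 and 0.984, so its direction was not the same in the 4 libraries. A single cluster of 82 nuclei in library 3 weighed on this value: it held 2947 CPM of Slc25a4, 971 of Slc25a3 and 339 of Slc25a5, against 516, 308 and 126 CPM in the largest cardiomyocyte-like cluster of that library. Without it, in a comparison added after its values were seen, the ratios in library 3 were 0.971 for Slc25a4 and 0.968 for Slc25a3, both then below 1, and the same 5 members were higher.

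Slc25a5, the ADP/ATP carrier found in many tissues, was 16.0, 40.7, 152 and 93.4 CPM in cardiomyocyte-like nuclei against 15.7, 72.0, 233 and 165 CPM, with ratios of 1.02, 0.564, 0.651 and 0.567. Both sides were lowest in library 1 and highest in library 3. Slc25a31, a carrier best known from testis, had 3 UMIs in all, and Slc25a6 had 17, which near-identical copies of Slc25a5 could affect. Slc25a3, which brings phosphate into the matrix for ATP synthesis, was 342, 186, 321 and 305 CPM against 104, 118, 314 and 290.0. Its ratio of 3.27 in library 1 stood beside 1.58, 1.02 and 1.05, so library 1 was the one in which it passed 2-fold.

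Free RNA was measured beside these abundant transcripts. Markers of the other classes stood in cardiomyocyte-like nuclei at 28.2, 46.7, 65.0 and 55.6% of their level in the whole library. This was taken as a rough share of free RNA. The reference was the profile of all barcodes, not of empty droplets, and whether the share is too high or too low was not tested. The 77 markers summed in cardiomyocyte-like nuclei to 1627, 3292, 7279.8 and 5195 CPM, with 6, 11, 0 and 4 of them at 0. In fibroblast-like nuclei the same share was 18.0, 54.9, 43.5 and 47.2%. It was 18.8, 46.7, 59.2 and 33.9% in endothelial-like nuclei. In libraries 1, 3 and 4 it was 27.7, 68.2 and 60.9% for macrophage-like nuclei. With the library profile subtracted at that share, the members higher in cardiomyocyte-like nuclei were 7, adding Slc25a20 and Slc25a26, and Slc25a24 and Slc25a37 became lower, where 7.45% of all genes were then higher and 34.9% lower.

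Slc25a20, the carnitine-acylcarnitine carrier of fatty acid entry, was 129, 143, 65.0 and 85.4 CPM in cardiomyocyte-like nuclei against 27.0, 46.9, 33.4 and 29.0 CPM. Its ratios of 4.80, 3.06, 1.94 (1.73 to 2.17) and 2.94 left it just outside the rule through library 3 alone. Without library 3, and without the cardiomyocyte-like clusters of highest UMI count, it was counted as higher, with lowest ratios of 2.94 and 2.27. Slc25a29, a basic amino acid carrier close to it in sequence, had too few UMIs to be measured in this comparison, with ratios of 2.18, 1.07, 1.69 and 1.81. Among the enzymes of the carnitine shuttle, Cpt1b, the muscle form of carnitine palmitoyltransferase, was higher and the other 2 measured were not.

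Slc25a42, a carrier of coenzyme A, was 114, 65.3, 32.3 and 59.0 CPM in cardiomyocyte-like nuclei against 28.6, 18.8, 13.5 and 15.1, with ratios of 3.98 (3.42 to 4.65), 3.48 (2.35 to 5.16), 2.40 (2.03 to 2.83) and 3.91 (3.25 to 4.73). The related Slc25a16 was not higher, at 51.2, 67.4, 106 and 75.6 CPM against 72.7, 88.2, 129.6 and 94.2. Its ratios, between 0.704 and 0.817, were below 1 in every library, as were those of 64.2% of all measured genes. Slc25a34, whose substrate is poorly known, was 69.0, 32.1, 23.9 and 32.6 CPM against 9.35, 4.88, 3.33 and 3.89. Its ratios were 7.37, 6.58 (3.33 to 13.7), 7.19 and 8.38, and most of its UMIs were in cardiomyocyte-like nuclei in each library. Like Slc25a23, it met the count requirement through the group where it was high. Slc25a21, the oxoadipate carrier of lysine breakdown, chosen after its values were seen, was 58.8, 18.2, 9.86 and 10.9 CPM against 7.84, 4.88, 1.55 and 2.54. Its ratios of 7.50, 3.73, 6.38 and 4.28 were all past 2-fold, but its UMIs were too few in library 2 for the count, and it was counted once that library was left out.

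None of the other measured carriers reached 2-fold in every library in cardiomyocyte-like nuclei. Slc25a26, which brings S-adenosylmethionine into the matrix, had ratios of 2.18, 1.68, 1.47 and 1.46, and Slc25a30, a relative of the uncoupling proteins, had 2.20, 1.54, 1.04 and 1.5. The mitoferrins, which carry iron for haem and iron-sulphur clusters, were both below 1 in every library, Slc25a28 between 0.646 and 0.861 and Slc25a37 between 0.400 and 0.716. A ratio below 1 in every library was also seen for 64.2% of all measured genes. The glutathione carriers Slc25a39 and Slc25a40 ranged from 0.673 to 1.33 and from 0.544 to 0.838. The pyrimidine nucleotide carriers Slc25a33 and Slc25a36 ranged from 0.852 to 1.72 and from 1.09 to 1.38. The folate and FAD carrier Slc25a32 was between 0.468 and 0.843, and Slc25a14, another relative of the uncoupling proteins, between 0.438 and 0.936. Slc25a46, an outer membrane protein of mitochondrial dynamics, had ratios of 1.13 to 1.48, and Slc25a44, a branched-chain amino acid carrier, of 0.909 to 1.20. Slc25a10, which carries dicarboxylates, ranged from 0.713 to 1.84 and the ornithine carrier Slc25a15 from 0.700 to 2.02, both highest in library 1. The NAD carrier Slc25a51 ranged from 0.723 to 1.11, and its near copy Slc25a52 had 46 UMIs in all, so the split of reads between them is uncertain. The glutamate carrier Slc25a18 was not measured by the rule, with ratios of 1.71, 3.42, 3.12 and 2.75, and its relative Slc25a22 had 1 UMI in all. Slc25a2, an ornithine carrier, had 45 UMIs.

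**Figure D2:**
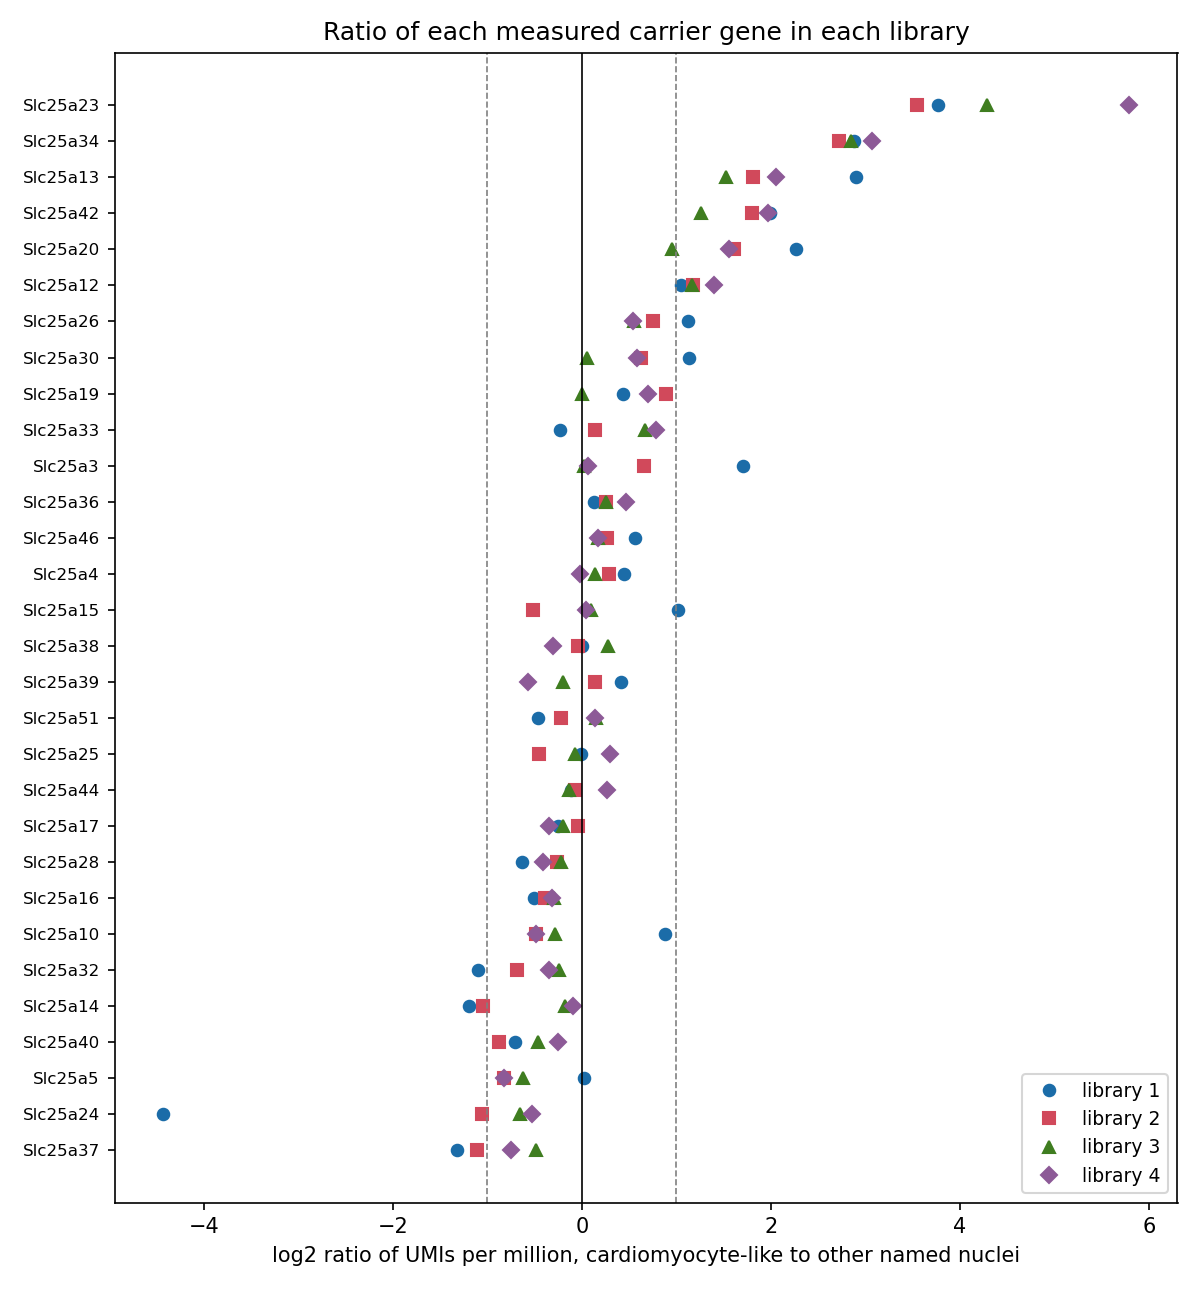
Log2 ratio of CPM in cardiomyocyte-like nuclei to those in other named nuclei (horizontal axis) for each of the 30 measured carrier genes (vertical axis, sorted by the median ratio), with 1 point per library. Dashed lines mark 2-fold: 5 genes have all 4 points past the right line, Slc25a20 has 1 point just inside it, and Slc25a24 in library 1 lies farthest to the left.

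Other genes of mitochondrial transport were read by the same rule from lists chosen with earlier results of these data known. None of the measured genes was higher or lower among 3 family members under other symbols, 5 genes of the pyruvate carrier and outer membrane channels, 5 of the calcium uniporter and 7 of carrier import. Mpc1 missed the rule through library 4 alone, with ratios of 4.18, 3.10, 2.04 and 1.93. Ucp3 was not measured, with ratios of 21.8, 2.85, 12.5 and 22.2, that of library 2 from 2 UMIs on each side. Mtch1 (0.450 to 0.694) and Mcu (0.424 to 0.689) were below 1 in every library, as were 64.2% of all measured genes. Of 5 measured regulators, receptors and coactivators of mitochondrial genes, 4 were higher (Esrrg, Ppargc1a, Ppargc1b and Ppara), beside the 4.93% of all genes given above. Esrrg, an estrogen-related receptor, was 432, 338, 179 and 233 CPM in cardiomyocyte-like nuclei against 72.7, 37.1, 13.3 and 10.4 CPM. Esrra, another such receptor, was not counted, with ratios of 3.03, 1.78, 1.16 and 1.25. Esrrb, also an estrogen-related receptor, had too few UMIs to be measured. Its ratios were 33.2, 19.2, 47.4 and 60.3, from 6, 4, 6 and 3 UMIs in the other named nuclei.

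Within the cardiomyocyte-like nuclei of 1 library, clusters differed in carrier level. In library 4 the 276 nuclei of one cluster held 252 CPM of Slc25a13, 131 of Slc25a20, 99.2 of Slc25a42, 52.0 of Slc25a34 and 17.6 of Slc25a21. The 207 nuclei of another, with a similar median UMI count (3763.0 against 3795.5), held 100.3, 44.8, 47.0, 10.7 and 3.20 CPM of the same genes. The first was higher in all 5, while Slc25a4 was 557 and 551 CPM and Slc25a3 348 and 299.9 CPM. The 207 nuclei passed 6 cardiomyocyte markers against 10 in the 276 nuclei, with mean marker log2 folds of 2.16 and 3.40. Whether the 207 nuclei were mixed with other cells was not tested. The remaining cluster of library 4, of 285 nuclei with a median of 7969.0 UMIs, held 117, 78.3, 44.5, 31.2 and 10.4 CPM of the same genes. In library 3 the 339 nuclei of a cluster with a median of 8438.0 UMIs held less of Slc25a13 than the largest cluster, 106 against 177 CPM, and of Slc25a23, 18.6 against 40.8 CPM. Its UMI count is high beside 3540.0 in the largest cluster, and nuclei mixed with other cells were not told apart from single nuclei there. The 82 nuclei rich in Slc25a4 had a median of 1876.0 UMIs and held 28.7 CPM of Slc25a13 and 5.75 CPM of Slc25a23, and the genes with the largest fold in them included Xirp2, Myh7, Nppa and Ankrd1. In library 1 the largest clusters were close, with 306 and 297 CPM of Slc25a13 and 68.6 and 72.4 CPM of Slc25a34. Members were left out of the genes used for clustering.

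In fibroblast-like nuclei (2385, 1193, 2730 and 1155) 1 of 37 measured members was higher, or 2.70%, where 3.84% of genes were, and 2 were lower, or 5.41%, where 4.17% of genes were. The higher one was Slc25a27, a relative of the uncoupling proteins known mainly from brain. It was 40.5, 10.9, 30.2 and 23.1 CPM in fibroblast-like nuclei and 4.02, 2.56, 7.86 and 7.37 CPM in other named nuclei. The ratios were 10.1 (7.17 to 14.3), 4.26 (1.52 to 14.7), 3.85 (3.21 to 4.62) and 3.13 (2.37 to 4.16). In each library most of its UMIs were in fibroblast-like nuclei, with 18 against 5 in library 2. It therefore met the count requirement through the group where it was high. Lymphatic endothelial-like nuclei (129, 180 and 71 in libraries 1, 3 and 4) held 63.2, 36.4 and 68.3 CPM of Slc25a27, above the fibroblast-like value of each of these libraries. They held only 205725, 439668 and 248894 UMIs over all genes, so these levels carry wide counting error. The order of the 2 classes is therefore not certain in every library. Blood endothelial-like nuclei held 5.53, 4.92, 5.61 and 5.08 CPM, and macrophage-like nuclei 0, 7.37 and 3.15 CPM in libraries 1, 3 and 4. In 5 alternatives it was no longer counted. With classes set by marker share the lowest ratio was 1.88, and with all libraries clustered together 1 library held none of it. With at least 1000 UMIs per nucleus (lowest ratio 2.50), with carriers among the variable genes (3.04) and with a tripled count minimum it had too few UMIs. The lower members were Slc25a13, with ratios of 0.119, 0.480, 0.412 and 0.480, and Slc25a23, both high in the cardiomyocyte-like nuclei that are part of the comparator here. Slc25a23 met the count requirement through those nuclei, which held most of its UMIs. Slc25a13 lay close to the bound, and 8 of the alternatives no longer counted it, with highest ratios from 0.529 to 0.807.

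Next in order by median ratio in fibroblast-like nuclei came Slc25a43, a poorly known carrier, with ratios of 2.41, 2.88, 0.443 and 1.02, on both sides of 1. The mitoferrin Slc25a37 followed at 57.3, 60.1, 55.0 and 54.2 CPM with ratios of 2.68, 1.61, 1.17 and 1.30, and Slc25a44 with 0.808 to 1.78. Slc25a37 varied little between libraries in this class, and its larger ratio in library 1 went with 21.4 CPM in the comparator there against 37.4, 46.9 and 41.6. Slc25a24 behaved alike, at 76.6, 74.6, 66.3 and 63.1 CPM in fibroblast-like nuclei with a ratio of 6.51 in library 1 and of 1.37, 0.993 and 1.01 in the others. Slc25a34 was among the lowest, with ratios of 0.208, 0.271, 0.701 and 0.485.

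In endothelial-like nuclei (2168, 575, 2568 and 993) 0 of 31 measured members was higher, where 3.66% of genes were, and 3 were lower, or 9.68%, where 5.10% of genes were. The lower members were Slc25a13, Slc25a23 and Slc25a34, with median ratios of 0.310, 0.0925 and 0.225. All were among the members higher in cardiomyocyte-like nuclei, which are part of the comparator here. Slc25a23 and Slc25a34 met the count requirement through those nuclei, which held most of their UMIs. The 4 highest median ratios were those of Slc25a40 (0.972 to 1.44), Slc25a14 (0.948 to 1.49), Slc25a32 (1.08 to 1.67) and Slc25a37 (0.934 to 1.13), none of which reached 2-fold. Slc25a13 was lost from the lower members in 4 alternatives, with highest ratios from 0.505 to 0.626. With classes set by marker share none of the 3 was counted, and the highest ratios of Slc25a23 and Slc25a34 were 0.730 and 1.02. Slc25a45, a poorly known carrier chosen after its values were seen, had too few UMIs for the count but was 14.4, 12.8, 10.4 and 11.1 CPM against 5.46, 6.97, 4.97 and 4.87. Its ratios were 2.64, 1.83, 2.09 and 2.29. Without library 2 it was the 1 of 37 measured members counted as higher, where 4.79% of genes were.

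In macrophage-like nuclei (272, 4374 and 875 in libraries 1, 3 and 4) 0 of 14 measured members was higher, where 1.71% of genes were, and 1 was lower, or 7.14%, where 13.6% of genes were. The lower member was Slc25a23, with 0, 16 and 3 UMIs, which gave ratios of at most 0.363 in library 1 and of 0.171 and 0.123 in libraries 3 and 4. Slc25a23 met the count requirement through the cardiomyocyte-like nuclei of the comparator, which held most of its UMIs. It was lost in 5 alternatives: at least 1000 UMIs per nucleus, classes by marker share, a tripled count minimum, the cardiomyocyte-like clusters of highest UMI count left out, and joint clustering. The highest median ratios among measured members were those of Slc25a16 (1.33 to 1.61), Slc25a28 (1.13 to 2.67), Slc25a4 (0.935 to 1.30) and Slc25a46 (0.722 to 1.18). Slc25a28 stood at 208 CPM in library 1, beside 53.0 and 83.9 CPM in libraries 3 and 4. Slc25a42 was the second lowest, with ratios of 0.220, 0.600 and 0.320. Slc25a43, named for this class after its values were seen, was 77.5, 43.8 and 37.3 CPM against 2.78, 14.0 and 7.70 in other named nuclei, from 19, 469 and 71 UMIs. Its ratios were 27.9 (15.3 to 49.0), 3.14 (2.73 to 3.61) and 4.84 (3.56 to 6.54), and it was left out of the count because so few UMIs were expected in library 1. Without library 1 it was the 1 of 35 measured members higher in macrophage-like nuclei, where 4.17% of genes were. T or NK cell-like nuclei held 53.1 and 23.7 CPM of it in libraries 3 and 4, and dendritic-like nuclei 35.5 CPM in library 3. Slc25a25, not measured by the rule, was also above 1 in the 3 libraries, at 20.4, 26.0 and 31.5 CPM against 14.7, 15.3 and 18.4. Its ratio in library 1 was 1.39 (0.446 to 3.29), from 5 UMIs in the class. Slc25a5, Slc25a24 and Slc25a37, also not measured, were above 1 in these libraries as well, as were 29.1% of all measured genes.

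**Figure D3:**
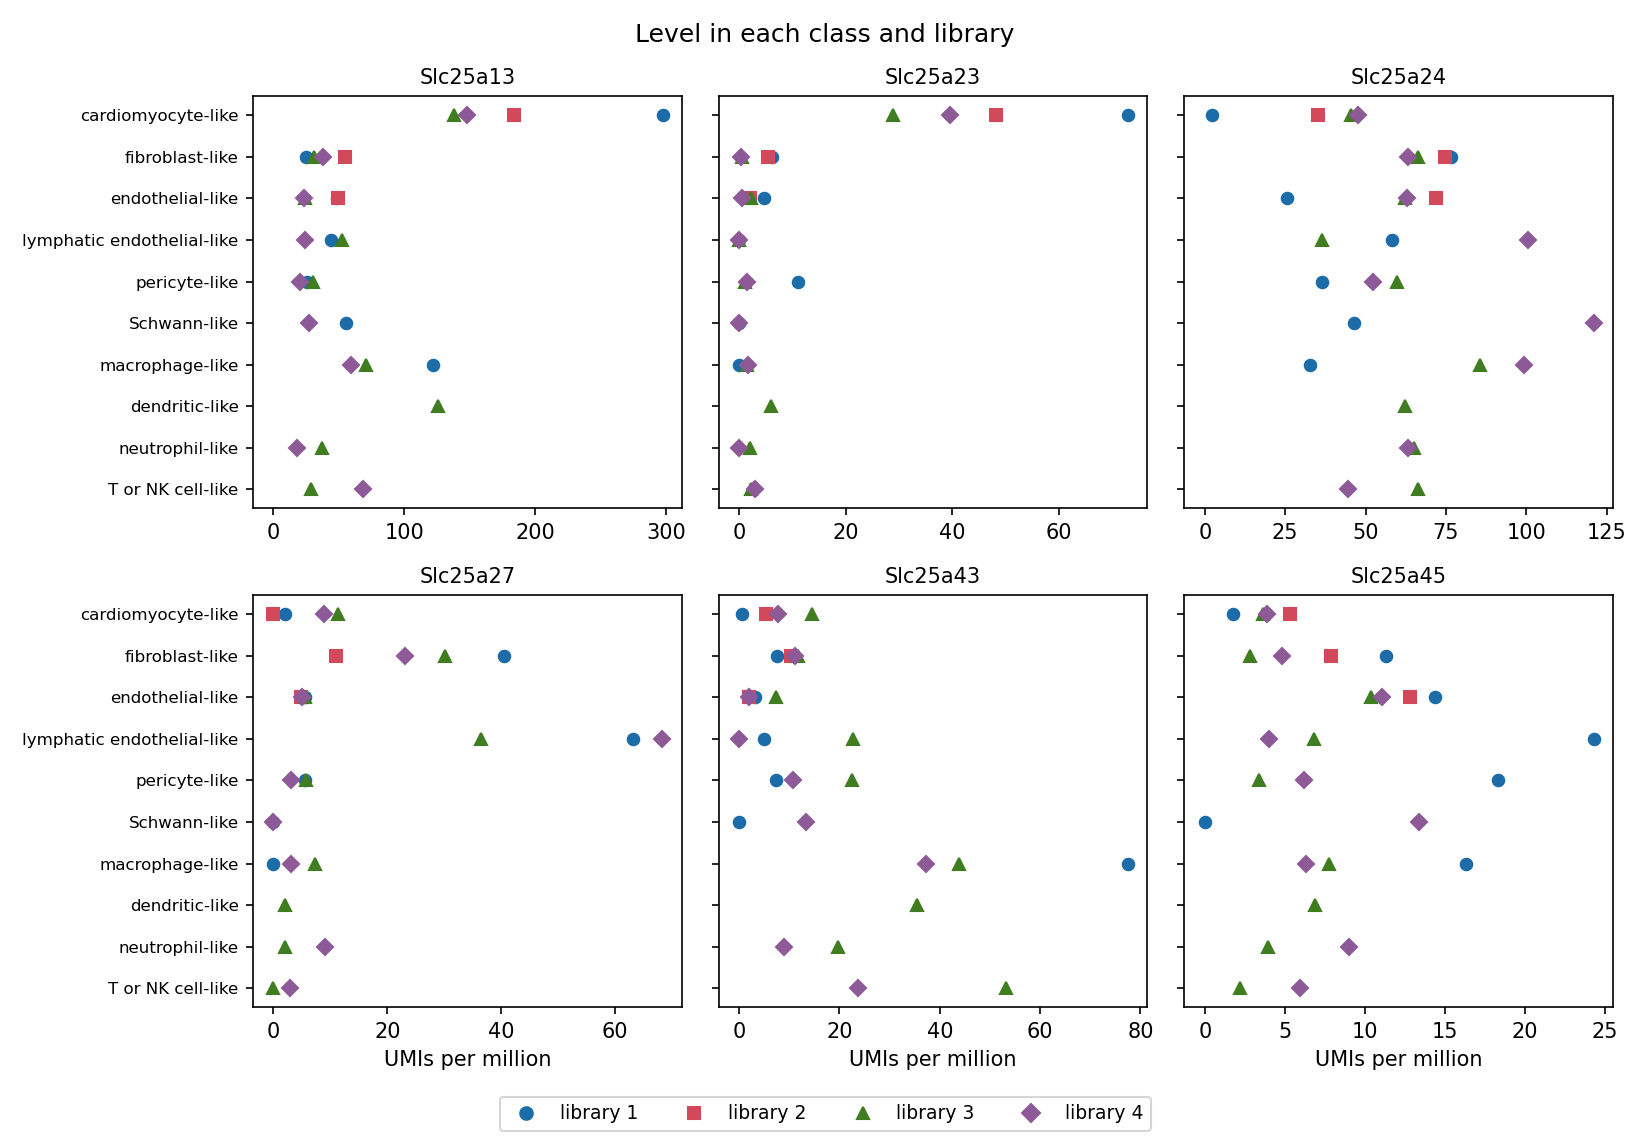
CPM (horizontal axes) of 6 carrier genes in each class (vertical axes) with 1 point per library in which the class was named. Slc25a13 and Slc25a23 lie highest in cardiomyocyte-like nuclei, Slc25a27 in lymphatic endothelial- and fibroblast-like nuclei and Slc25a43 in macrophage-, T or NK cell- and dendritic-like nuclei, while the points of small classes rest on few UMIs.

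The 4 class comparisons share nuclei, since each comparator holds the other classes, so they are not separate evidence. The comparator also changes between libraries, and in library 2 it held no immune or mural nuclei.

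Across libraries, a member was taken as measured where at least 30 UMIs would be expected in each library at equal levels. In cardiomyocyte-like nuclei the highest library was at least 2-fold above the lowest for 10 of 17 members, or 58.8%, where 50.7% of genes were. Such a span with library 1 highest was seen for 4 of the 17, or 23.5%, where 9.27% of genes had one. With library 1 lowest it was seen for 2 of the 17, or 11.8%, where 36.1% of genes had one. The 4 were Slc25a13, Slc25a23, Slc25a34 and Slc25a42, each lowest in library 3 and each among the members higher in cardiomyocyte-like nuclei. Slc25a42 spanned 3.52-fold (3.04 to 4.09), Slc25a34 2.88-fold (2.42 to 3.45), Slc25a23 2.53-fold (2.15 to 2.98) and Slc25a13 2.15-fold (2.00 to 2.32). Slc25a20, Slc25a26 and Slc25a30 were highest in library 2 and lowest in library 3, with spans of 2.21-, 2.12- and 2.41-fold, although Slc25a30 was 55.6 CPM in both libraries 1 and 2. The members with library 1 lowest were Slc25a5, which spanned 9.48-fold (7.89 to 11.5), and Slc25a16, which spanned 2.07-fold. Slc25a4 spanned 3.18-fold with library 2 lowest. Slc25a12 stayed within 1.21-fold (1.02 to 1.43).

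Single libraries set many of these spans. Without library 1, 6 members spanned 2-fold in cardiomyocyte-like nuclei, and 23.2% of genes did. Without library 2, whose few nuclei keep many genes out of the count, 17 of 34 members did and 53.7% of genes. Without library 3, whose cardiomyocyte-like nuclei had the lowest marker sum, 6 members did and 38.6% of genes. Without the cardiomyocyte-like clusters of highest UMI count it was 6 members and 41.9% of genes. The free RNA share was 28.2% in library 1 and 46.7 to 65.0% in the others, and its part in the 4 members highest in library 1 was not tested.

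Spans of at least 2-fold were seen for 7 of 22 measured members in fibroblast-like nuclei, or 31.8%, where 46.4% of genes had one. They were seen for 9 of 16 in endothelial-like nuclei, or 56.2%, where 42.8% of genes had one, and for 3 of 4 in macrophage-like nuclei, or 75.0%, where 32.0% had one. Without library 1 no macrophage-like span was left, and 4.89% of genes had one. Slc25a5 had its lowest level in library 1 in all 4 classes. It was 14.8, 67.9, 239.7 and 173 CPM in fibroblast-like nuclei and 14.4, 78.7, 205 and 145 CPM in endothelial-like nuclei. Macrophage-like nuclei of libraries 1, 3 and 4 held 20.4, 236 and 185 CPM. Slc25a4 was likewise higher in libraries 3 and 4 than in libraries 1 and 2 in fibroblast-like nuclei, at 169, 149, 484 and 532 CPM, and in endothelial-like nuclei, at 156, 119, 466 and 403 CPM. Slc25a39 was highest in library 2 in the 3 classes named there, with 78.1 CPM in cardiomyocyte-, 69.8 in fibroblast- and 73.8 in endothelial-like nuclei, and lowest in library 1 with 19.6, 15.1 and 15.7 CPM.

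Slc25a3 was 111, 127, 323 and 316 CPM in fibroblast-like nuclei and 91.0, 104, 266 and 235 CPM in endothelial-like nuclei, low in libraries 1 and 2 and high in libraries 3 and 4. In cardiomyocyte-like nuclei it was instead highest in library 1, at 342 CPM. Median mitochondrially encoded shares had a similar order in the classes: 0.105, 0.314, 0.873 and 0.903% in fibroblast-like nuclei and 0.0454, 0.199, 0.755 and 0.753% in cardiomyocyte-like nuclei. The part of this share, of depth and of free RNA in the levels of Slc25a3, Slc25a4 and Slc25a5 was not tested. Slc25a36 ran the other way in fibroblast-like nuclei, at 106, 74.0, 47.9 and 44.7 CPM, and Slc25a27 was lowest in library 2 there.

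**Figure D4:**
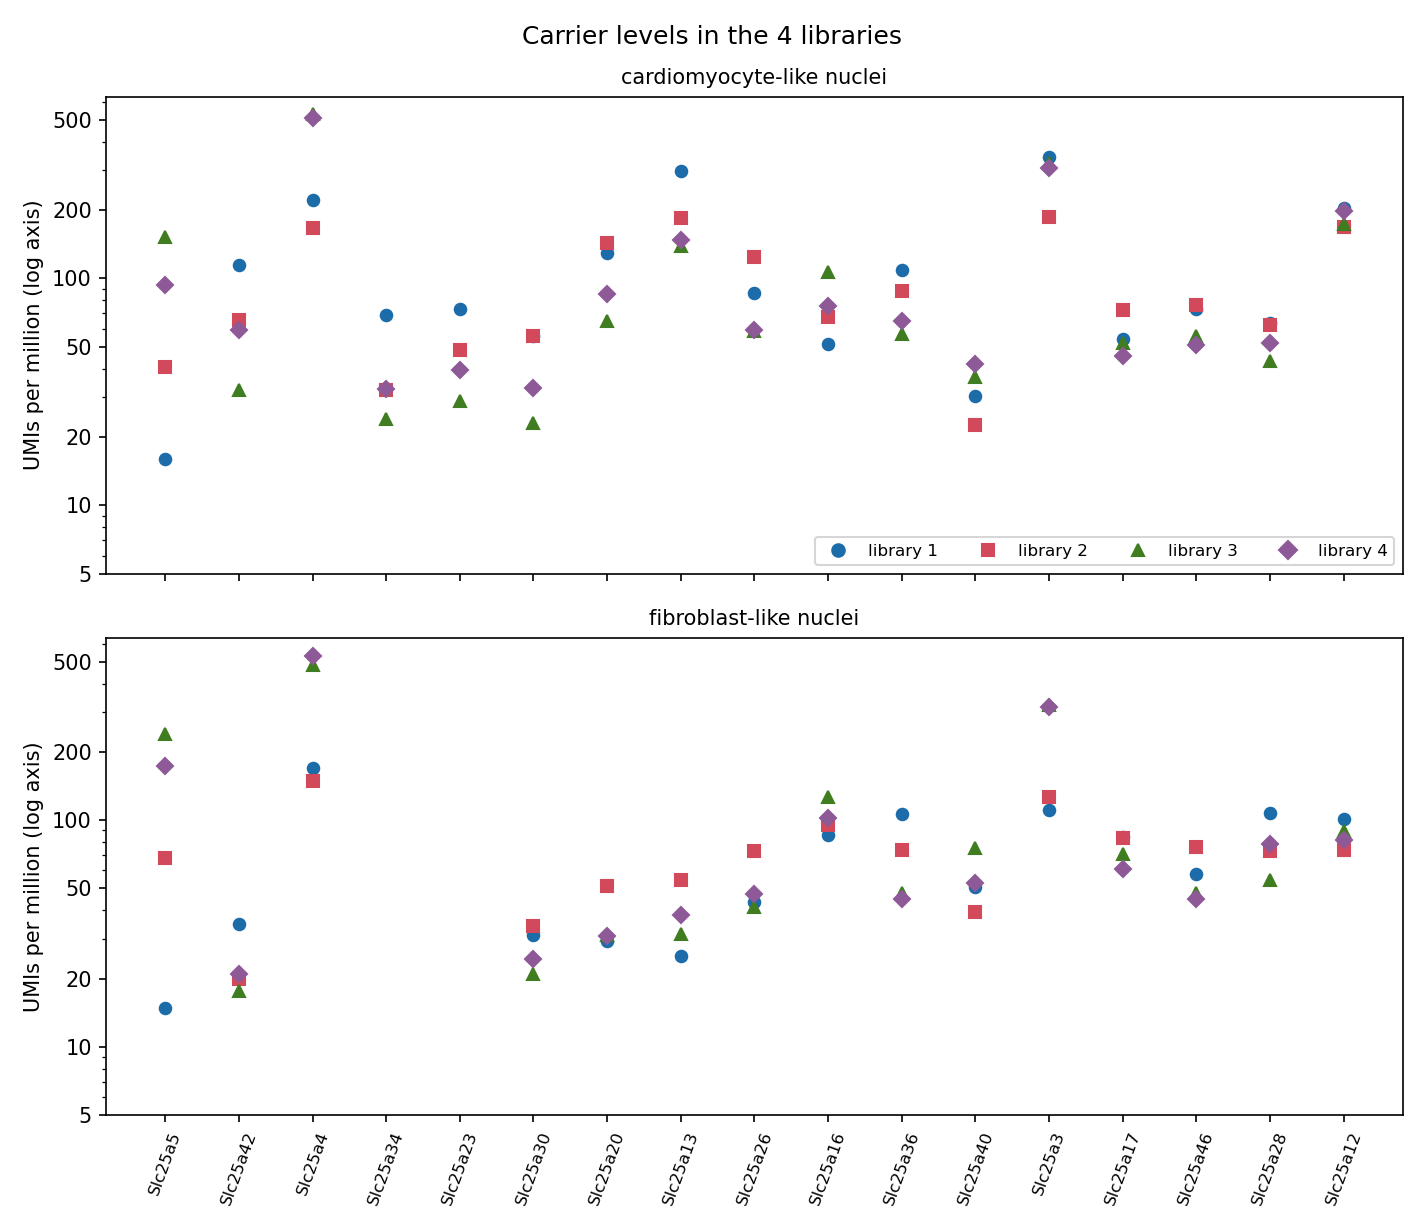
CPM (log axes) in libraries 1 to 4 for the 17 carrier genes measured across libraries in cardiomyocyte-like nuclei, sorted by their span, and for those of them measured in fibroblast-like nuclei (lower panel, gaps where not measured). Slc25a5 is lowest in library 1 in both panels, and Slc25a12 has the narrowest spread in the upper panel.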

How the data were processed

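Nuclei had been isolated by Dounce homogenisation and sequenced on 10x 3' v3, per the labels' protocols. The deposited matrix holds raw UMI counts per gene and nucleus for the 4 libraries together, and per the file headers it was written by cellranger 5.0.1. The submitters' processing notes name Cell Ranger 6.1.1, Seurat and rn7. No source used here gives the other steps.

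Nuclei needed at least 500 UMIs, 300 genes and at most 10% mitochondrial UMIs. Doublets were removed by the highest Scrublet scores, at 0.8% per 1000 nuclei (650, 1706, 2166 and 340), because the automatic threshold marked 901, 0, 0 and 1. Each library was clustered separately in scanpy 1.11.5 with leidenalg 0.10.2 (2000 variable genes without the carriers, 30 components, 15 exact neighbours, resolution 1, seed 1). Clustering was tried in 4 ways. Separate clustering and the naming steps were chosen after the clusters were seen, because joint clustering put endothelial and fibroblast nuclei of library 2 in 1 unnamed cluster. The numerical steps of the clustering were replaced once more after carrier values had been seen, because an earlier version did not give the same clusters when repeated. All values are from the repeatable version, which was not picked for its values. A class name needed 3 markers at least 2-fold higher and in 5% of nuclei, and a margin of 0.5 log2 over the next unrelated class. Naming ran in passes: each cluster was first set against all other nuclei, then against nuclei that the pass before had named as unrelated classes. In the last pass a cluster stayed unnamed if its 10 top genes held more markers of an unrelated class than of its own. The same held if they held none of its own and its median UMI count was under that of its library divided by 3. A library 4 cluster of 979 nuclei that passed 9 endothelial markers was left unnamed in this way. Classes entered a comparison where a library held at least 50 nuclei.

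Ratios carry conditional binomial and levels Poisson exact intervals, computed in scipy 1.17.1, numpy 2.4.6 and pandas 2.3.3 under Python 3.11.15. Medians used log2 values with 10 CPM added. Scripts were tested on simulated data. Genes named by rule were all members called in cardiomyocyte-like nuclei, the member with most UMIs in each role, the 4 highest and 2 lowest median ratios in the other classes, the widest spans and close pairs of carriers. The carriers and lists were chosen with earlier results of these data known. Alternatives tried covered nucleus filters, doublets, class rules, count minimums, folds, centring, free RNA, clusters, clustering seeds and leaving out each library. Protein sequence features were not analysed here.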

Additional observations from a re-analysis of the deposited data

How the results depend on the processing

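No paired analysis was possible because no source used here ties a library to a sample and each sample has 1 library. Slc25a13 was higher in cardiomyocyte-like nuclei under every alternative run, and Slc25a42 under all but the tripled count minimum. No median ratio of a called carrier changed side of 1 in the alternatives that recomputed it. The cause of the following changes was not tested, except that fewer nuclei or a stricter minimum leaves fewer genes measured.

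Brackets give the share of all measured genes beside counts that rose. With at least 1000 UMIs per nucleus, the median log2 ratio in cardiomyocyte-like nuclei was 0.02 (0.06 as reported), 0 members were higher and 1 lower in fibroblast-like nuclei, and 0 were lower in macrophage-like nuclei. With doublets kept, 1 was lower in fibroblast-like and 3 of 17 in macrophage-like nuclei (11.9% of genes). With classes set by marker share, 3 were higher in cardiomyocyte-like nuclei, 0 higher and 1 lower in fibroblast-like nuclei, 0 lower in endothelial-like and macrophage-like nuclei, and 6 of 6 spanned 2-fold in the last (47.9%). With members among the variable genes, 0 were higher and 1 lower in fibroblast-like nuclei and 3 of 16 lower in macrophage-like nuclei (14.4%). Halving the expected UMIs gave spans for 17 of 27 members in cardiomyocyte-like (56.6%), 11 of 30 in fibroblast-like (50.1%) and 5 of 7 in macrophage-like nuclei (32.0%), and 3 of 22 lower in the last (11.1%). Tripling them left 2 higher and 3 spans in cardiomyocyte-like nuclei, 0 higher, 1 lower and 4 spans in fibroblast-like nuclei, 1 lower and 3 spans in endothelial-like nuclei, and 0 lower and 1 span in macrophage-like nuclei. Centring on all genes moved the median to 0.41. At 1.5-fold, 15 of 22 members spanned in fibroblast-like nuclei (72.9%), and 5 of 31 were lower in endothelial-like (8.54%) and 3 of 14 in macrophage-like nuclei (20.5%). Subtracting free RNA made 2 of 30 lower in cardiomyocyte-like (34.9%), 5 of 31 in endothelial-like (9.93%) and 4 of 14 in macrophage-like nuclei (25.0%), and 12 of 22 spanned in fibroblast-like nuclei (55.5%). Without the cardiomyocyte-like clusters of highest UMI count (49, 339 and 285 nuclei), 6 spanned 2-fold there and 1 was lower in fibroblast-like nuclei.

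Leaving out each library in turn gave 5 to 6 of 30 to 38 members higher in cardiomyocyte-like nuclei (5.07 to 5.76% of genes). Spans there numbered 6 to 17 of 18 to 34 (23.2 to 53.7%), and the median was 0.03 to 0.08. In fibroblast-like nuclei 2 to 3 of 37 to 38 were lower (4.13 to 6.14%) and 4 to 8 of 21 to 29 spanned (19.7 to 44.1%). In endothelial-like nuclei 0 to 1 of 31 to 37 were higher (3.75 to 4.79%) and 3 to 5 lower (5.18 to 7.50%). Spans there numbered 4 to 12 of 15 to 26 (22.3 to 39.8%). In macrophage-like nuclei 0 to 1 of 14 to 35 were higher (1.71 to 4.17%) and 1 to 3 lower (9.29 to 16.2%). Spans there numbered 0 to 3 of 4 to 22 (4.89 to 32.0%). The lowest span counts in the last 3 classes came without library 1.

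The remaining alternatives were chosen after seeing the data. Clustering the libraries together gave a median of 0.02 in cardiomyocyte-like nuclei, 0 higher, 0 lower and 2 spans in fibroblast-like nuclei and 14 spans of 27 in endothelial-like nuclei (54.1%). Counting an unnamed cluster of 979 nuclei as endothelial-like left 1 lower in fibroblast-like nuclei. With clustering seed 2, 2 of 16 were lower in macrophage-like nuclei (13%), and with seed 3, 3 of 16 were lower there (14.5%) and 1 in fibroblast-like nuclei. Both seeds gave the same 5 members higher in cardiomyocyte-like nuclei. Depth limits the carriers: 11 of 48 were measured in no class comparison, and library 2 had few named nuclei.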
